A study of Drosophila melanogaster with 2 samples.

Results

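The genes described here are 10 components of the Notch signalling pathway of Drosophila melanogaster, namely N, Ser, fng, kuz, neur, Su(H), mam, H, E(spl)m3-HLH and E(spl)m8-HLH. They were chosen by gene symbol, from 13968 protein-coding genes on the 7 chromosome arms, and the values reported are those of Lim3 peaks at each gene. The choice was made with earlier results of these data known. Lim3 is a LIM-homeodomain transcription factor known from motor neurons. Chromatin came from whole Lim3-GFP embryos aged 8 to 24 h by the source label (a separate age label gave an implausible value and was set aside), which carried a transgenic insertion producing Lim3 fused to eGFP. It was sonicated and precipitated with an antibody against GFP. The series held 1 group of 2 biological replicates and no other genotype, treatment or stage, so a peak reports the fusion protein averaged over all cells of the embryo, and no control library was analysed here.

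The deposited files were peak lists on the dm6 assembly, and read depth is unknown. A ranked list of 142438 peaks came from both libraries together, and each replicate had a ranked list of its own, with 104680 peaks in replicate 1 and 113860 in replicate 2. Short thresholded lists had been cut from these rankings at an irreproducible discovery rate (IDR) of 0.01. The IDR estimates the share of peaks of that strength that would not be found again in a second data set. In the ranking from both libraries, a low IDR did not mean that each replicate held the peak. Some peaks with a low IDR there overlapped no ranked peak of replicate 1. The larger thresholded list from both libraries held 1500 peaks, and a peak in it is called listed below. A second, conservative list of 966 peaks rested on the agreement between the 2 libraries. The lists of the single replicates held 881 peaks in replicate 1 and 927 in replicate 2. The signal of a peak is the authors' own value on an unstated scale. It was used to order peaks within a list, so that place 1 is the strongest peak. Medians, ratios between peaks and a rank correlation between replicates were also taken from it, and the ratios depend on that scale. A peak was assigned to a gene when its summit lay within the gene or within 2 kb of either end.

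In Notch signalling, a ligand such as Serrate on one cell binds the receptor Notch on its neighbour. Neuralized, a ubiquitin ligase, promotes endocytosis of ligand in the sending cell, Fringe adds sugars to the receptor that change its response to each ligand, and the metalloprotease Kuzbanian cuts the bound receptor. The freed intracellular domain enters the nucleus and joins the DNA-binding protein Su(H) and the coactivator Mastermind, while Hairless tethers co-repressors to Su(H) when no signal arrives. The E(spl) complex holds the classical target genes, most of which encode bHLH repressors that block neural fate. In the embryonic nervous system of the fly the pathway selects neural precursors and separates the fates of sister cells.

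The sequences under the summits of listed peaks are shown first, because they are the DNA on which the strong peaks were centred. The 4 windows at the receptor gene N, at neur and in the E(spl) complex at E(spl)m3-HLH and E(spl)m8-HLH are followed by those of 2 neighbouring complex genes and of the co-repressor gene Smr. Each window is 200 bp of the plus strand of genome release 6 (dm6) centred on the summit, read from the RefSeq assembly. Capitals mark matches, on either strand, to the 8 short words described with the motifs, and a window with no capitals held none.
N, chrX:3162432-3162631: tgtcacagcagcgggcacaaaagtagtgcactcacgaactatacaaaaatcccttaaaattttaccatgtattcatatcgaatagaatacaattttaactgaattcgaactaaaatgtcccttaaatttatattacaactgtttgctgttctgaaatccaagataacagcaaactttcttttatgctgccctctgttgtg
neur, chr3R:9031920-9032119: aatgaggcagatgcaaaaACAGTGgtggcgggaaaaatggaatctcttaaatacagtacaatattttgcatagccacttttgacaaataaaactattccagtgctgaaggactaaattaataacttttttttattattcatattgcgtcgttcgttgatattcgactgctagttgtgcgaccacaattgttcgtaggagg
E(spl)m3-HLH, chr3R:26021290-26021489: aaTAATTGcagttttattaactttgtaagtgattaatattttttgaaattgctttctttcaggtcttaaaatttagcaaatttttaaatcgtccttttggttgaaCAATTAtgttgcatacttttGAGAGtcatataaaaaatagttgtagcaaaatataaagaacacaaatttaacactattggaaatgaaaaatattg
E(spl)m8-HLH and gro, chr3R:26042419-26042618: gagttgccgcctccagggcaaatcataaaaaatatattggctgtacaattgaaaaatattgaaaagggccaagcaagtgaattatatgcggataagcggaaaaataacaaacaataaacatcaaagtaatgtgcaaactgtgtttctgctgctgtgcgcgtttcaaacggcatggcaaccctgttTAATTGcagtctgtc
E(spl)malpha-BFM, chr3R:26008969-26009168: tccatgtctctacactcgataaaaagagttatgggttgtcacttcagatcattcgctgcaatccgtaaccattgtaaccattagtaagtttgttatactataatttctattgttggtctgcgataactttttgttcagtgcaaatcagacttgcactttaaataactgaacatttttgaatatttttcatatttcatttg
E(spl)mdelta-HLH, chr3R:25996527-25996726: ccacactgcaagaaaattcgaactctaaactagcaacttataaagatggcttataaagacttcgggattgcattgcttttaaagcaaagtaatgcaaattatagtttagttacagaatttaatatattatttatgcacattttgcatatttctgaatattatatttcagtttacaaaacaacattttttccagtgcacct
Smr, chrX:12734928-12735127: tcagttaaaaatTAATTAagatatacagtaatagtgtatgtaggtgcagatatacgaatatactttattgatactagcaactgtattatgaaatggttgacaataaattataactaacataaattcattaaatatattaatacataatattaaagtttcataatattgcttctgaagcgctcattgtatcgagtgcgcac

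Of the 10 genes, 5 had at least 1 listed peak, namely N, neur, mam, E(spl)m3-HLH and E(spl)m8-HLH, and the other 5 (Ser, fng, kuz, Su(H) and H) had none. The peak assigned to E(spl)m8-HLH lay inside the neighbouring gene gro. Among all protein-coding genes the share with a listed peak was 13.1%. The conservative list had a peak at 4 of the 10 (9.57% of all genes). The list of replicate 1 had a peak at 5 (8.13% of all genes) and that of replicate 2 at 4 (8.73% of all genes). A ranked peak found in both replicates' lists was present at 4 of the 10, N, neur, mam and E(spl)m8-HLH, and at 5.48% of all genes. With 10 genes, chosen when earlier results of these data were known, these shares are descriptions, and no test was made of them.

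Longer genes offer more room for a peak, and the counts were therefore also set against genes of like span. Among genes under 5 kb, where 9.63% had a listed peak, E(spl)m3-HLH and E(spl)m8-HLH had one and Su(H) had none. Among genes of 5 to under 20 kb, where the share was 19.6%, neur had one and H had none. Among genes of 20 to under 50 kb the share was 29.6%, and N had a listed peak where Ser and fng had none. At 50 kb or more the share was 40.9%, and mam had listed peaks where kuz had none. In the order of the strongest peak per gene within its span class, 1.78% of genes stood ahead of E(spl)m8-HLH, 4.94% ahead of neur, 5.23% ahead of E(spl)m3-HLH, 8.95% ahead of mam and 10.6% ahead of N. The corresponding shares were 41.7% for Su(H), 52.7% for kuz, 62.5% for fng, 77.3% for H and 84.2% for Ser. The value for E(spl)m8-HLH is that of a peak inside the neighbouring gene gro, 122 bp upstream of a gro start. In the span class of gro, 3.96% of genes stood ahead of gro.

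**Figure D1:**
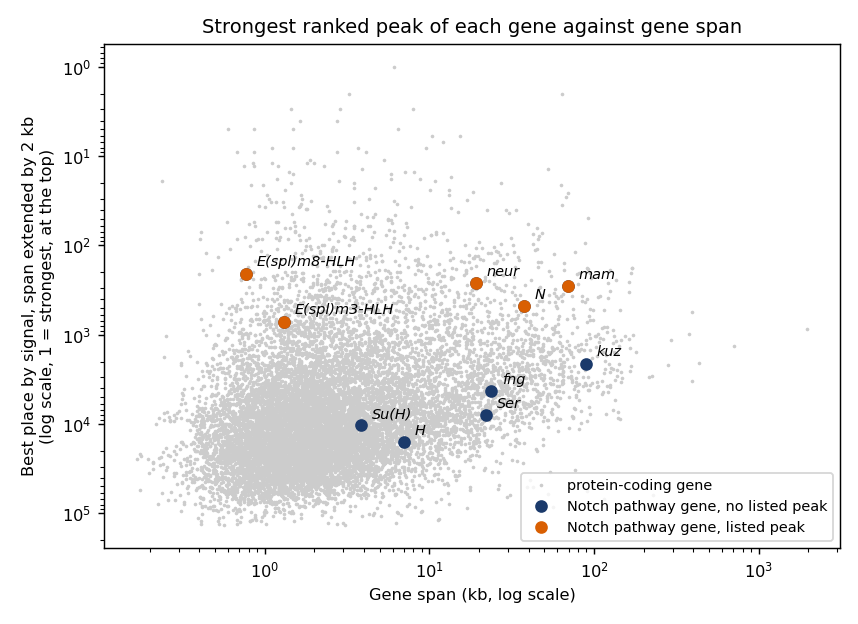
Best place by signal of each protein-coding gene with a ranked peak (vertical, log scale, 1 at the top) against gene span in kb (horizontal, log scale), with the 10 Notch pathway genes coloured. The 5 genes with a listed peak stand between places 207 and 713, and the 5 without one stand between places 2102 and 16008.

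The 10 genes together held 341 ranked peaks, from 5 at E(spl)m8-HLH to 90 at mam, and 7 of these (2.05%) were listed, against 1.12% of all ranked peaks. The density of ranked peaks per kb of extended span had a median of 1.11 over the 10 genes, with a range of 0.729 at kuz to 1.53 at Ser, and the median over all genes was 1.18. The median signal of the 341 peaks was 17.8, where that of all ranked peaks was 18.0. The 7 listed peaks had a median signal of 119, where that of the whole larger list was 89.9. Most ranked peaks at these genes had the signal of a typical ranked peak, and a single strong peak stood apart at neur, N, E(spl)m8-HLH and E(spl)m3-HLH, 3.96, 3.24, 3.12 and 2.30 times as strong as the next.

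**Figure D2:**
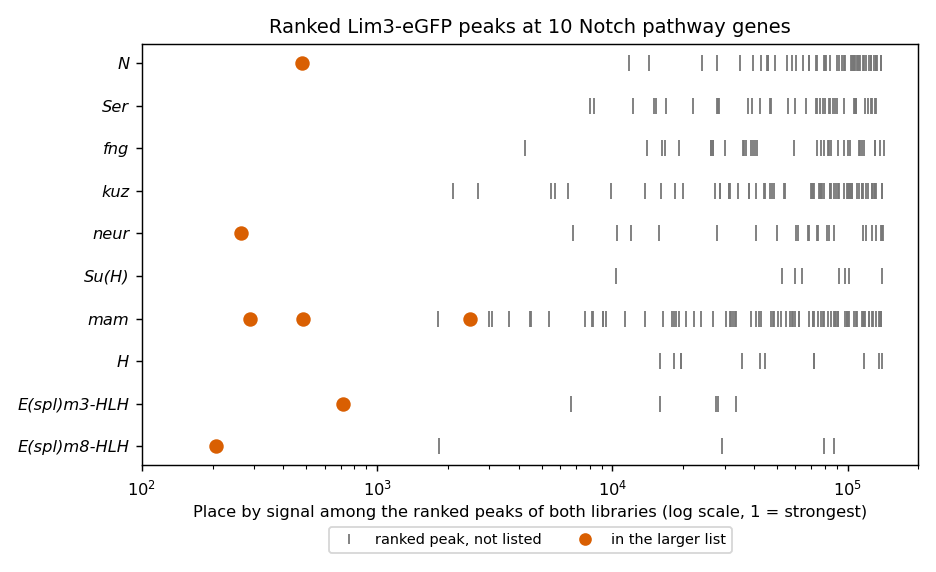
Place by signal of each of the 341 ranked peaks at the 10 genes (horizontal, log scale, 1 is the strongest of 142438), 1 row per gene, with the 7 listed peaks as orange points. The strongest peak of N is at place 479 and its next at 11755, while the strongest peak of Ser is at place 8012.

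N encodes the receptor and spans 37.4 kb of X (3134870 to 3172221, plus strand). Its listed peak covered X:3162367-3162696, in the fifth intron of 8, an intron of 4.25 kb, and its summit lay 27662 bp downstream of the start of the gene. The peak stood at place 479 in the ranking from both libraries, with a signal of 119 and an IDR of 0.000392. In replicate 1 it stood at place 432 with a signal of 68.9, and in replicate 2 at place 718 with a signal of 51.4. Both replicates' lists and the conservative list contained it. None of the other 51 ranked peaks at N was listed, and the next strongest had a signal of 36.7 at place 11755, so the listed peak was 3.24 times as strong. Within 500 bp of the N start, the strongest of 2 ranked peaks stood at place 27803.

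neur encodes the ubiquitin ligase Neuralized and spans 19.1 kb of 3R (9020348 to 9039471, minus strand). The listed peak at 3R:9031985-9032083 was 99 bp wide, narrower than the 330 bp of most peaks from both libraries. Its summit lay in the first intron of the longest transcript, which is 15.3 kb long, and 1711 bp downstream of the start of a shorter one. It stood at place 265 with a signal of 165 and an IDR of 8.97e-05. The places in the single replicates were close, 316 in replicate 1 (signal 83.0) and 306 in replicate 2 (signal 79.6). The next strongest peak at neur had a signal of 41.6 at place 6781, and the strongest within 500 bp of either neur start stood at place 50009. The listed peak was 3.96 times as strong as the next one, the widest such gap among the 10 genes.

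mam, the gene of the coactivator Mastermind, spans 69.2 kb of 2R (13991203 to 14060356, plus strand) and was the only one of the 10 with more than 1 listed peak. A pair of peaks lay in the third intron of 6, which is 27.5 kb long, with summits 648 bp apart. The first, at 2R:14024351-14024680, had a signal of 157 at place 287, with place 277 (signal 87.2) in replicate 1 and 479 (signal 63.0) in replicate 2. The second, at 2R:14024999-14025328, had a signal of 118 at place 484, with place 590 (signal 58.0) in replicate 1 and 567 (signal 58.5) in replicate 2. Both were in the lists of both replicates and in the conservative list. The gene CG18371 lies inside mam, and its start was the nearest one to both summits, at 4104 bp and 3456 bp.

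The remaining listed peak at mam, 2R:14005609-14005938 in the second intron, rested on less. Its signal was 53.6, at place 2472, and its IDR was 0.0087. In replicate 2 it stood at place 2207 with a signal of 33.2, and it overlapped no ranked peak of replicate 1. Neither replicate's list held it, and the conservative list did not either. Its summit lay 207 bp downstream of the start of a noncoding transcript and 3425 bp upstream of the nearest mam start. An unlisted peak at place 1816, with a signal of 59.5, lay 292 bp upstream of the start of CG18371 and missed the threshold with an IDR of 0.0113. A further one stood at place 3629 with an IDR of 0.0439.

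**Figure D3:**
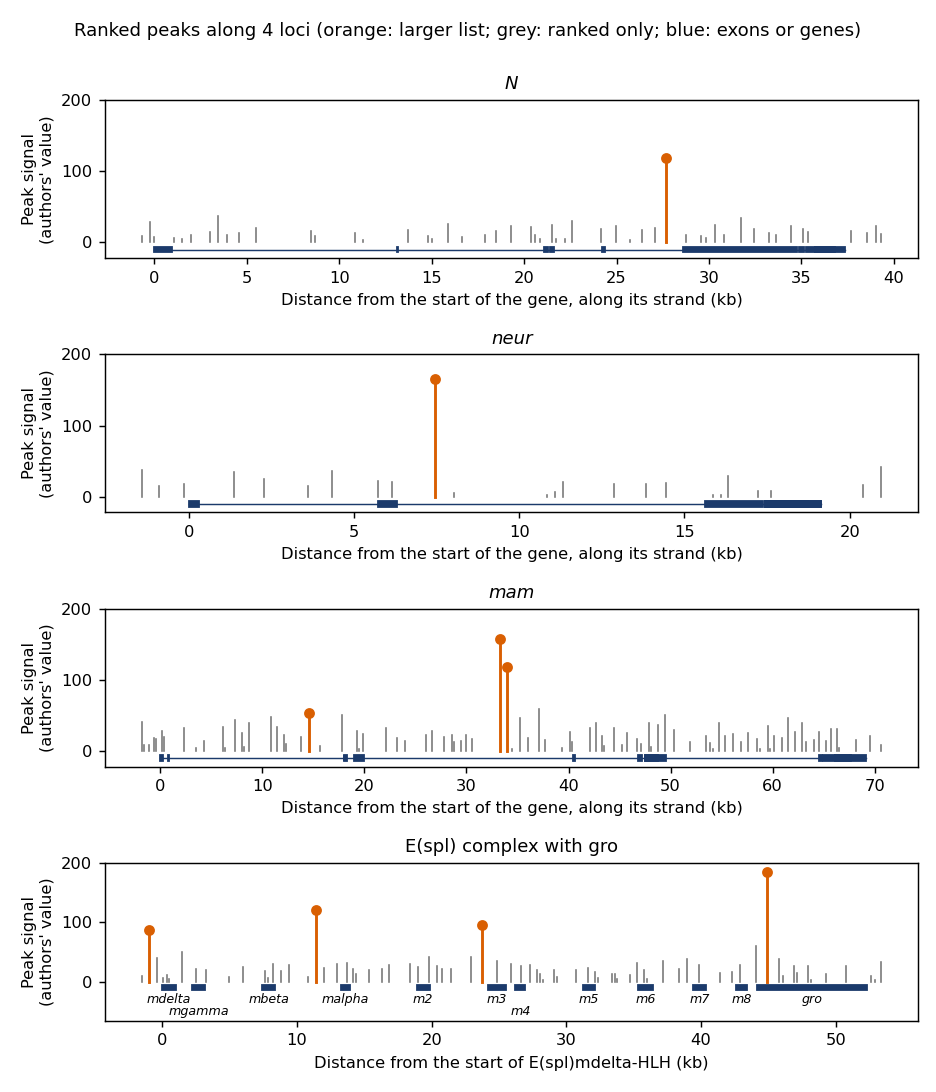
Signal of each ranked peak (vertical, the authors' value) along N, neur, mam and the E(spl) complex with gro (horizontal, kb from the start of the gene or of the complex), with listed peaks in orange and exons or genes in blue. Listed peaks reach 119 at N, 165 at neur, 157 at mam and 185 at gro.

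E(spl)m3-HLH encodes a bHLH repressor and spans 1.30 kb of 3R (26021823 to 26023127, plus strand). Its listed peak, 3R:26021225-26021554, was the only listed peak among the 10 genes within 500 bp of the gene's own start, with its summit 433 bp upstream. The start of a noncoding RNA, lncRNA:CR43644, was nearer still, at 314 bp. The peak had a signal of 96.2 at place 713, with an IDR of 0.000998. Of the 6 listed peaks at the 10 genes that were in both replicates' rankings, the places differed most here. In replicate 1 the peak stood at place 456 with a signal of 66.9 and was in that replicate's list. In replicate 2 it stood at place 4696 with a signal of 27.6 and an IDR of 0.398, and was not in the list. The IDR between the libraries was 0.0144, and the peak was not in the conservative list.

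E(spl)m8-HLH, also a bHLH repressor gene, spans 0.769 kb of 3R (26040240 to 26041008, plus strand). The strongest peak of the 10 genes was assigned to it, at place 207 with a signal of 185 and an IDR of 5.85e-05. That peak, 3R:26042482-26042575, was 94 bp wide and lay outside E(spl)m8-HLH, 1511 bp past its end. Its summit was inside the neighbouring gene gro, which encodes the co-repressor Groucho, in the first intron of the longest gro transcript and 122 bp upstream of the start of another. In replicate 1 it stood at place 351 with a signal of 78.1, and in replicate 2 at place 196 with a signal of 96.8. Both replicates' lists and the conservative list held it. A second peak, at place 1839 with a signal of 59.2, lay 9 bp upstream of the first gro start and missed the threshold with an IDR of 0.014. Inside E(spl)m8-HLH itself the strongest ranked peak stood at place 29363 with a signal of 28.4. Of the protein-coding genes, those nearest in the order of the strongest peak were RapGAP1 (place 206) and Ptp4E (place 205) on one side and schlank (place 208) and sbb (place 209) on the other.

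At the 5 genes without a listed peak, the strongest ranked peaks stood between places 2102 and 16008, and those of Su(H) and H lay in a neighbouring gene. kuz, the protease gene, spans 89.3 kb of 2L (13550139 to 13639411, plus strand) and came nearest to the threshold. Its strongest peak was intronic at place 2102, with a signal of 56.4, above that of the weakest listed mam peak, and an IDR of 0.0118. In replicate 2 that peak stood at place 1485 with a signal of 37.9, and in replicate 1 at place 9984 with a signal of 21.3. A second intronic peak of kuz stood at place 2673, and no ranked peak lay within 500 bp of the kuz start.

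fng, the gene of the glycosyltransferase Fringe, spans 23.6 kb of 3L (20925891 to 20949512, minus strand). Its strongest peak lay in its own coding exon at place 4257, with a signal of 46.2, at place 17697 in replicate 1 (signal 18.3) and 5421 in replicate 2 (signal 26.8). Ser, the ligand gene, spans 22.2 kb of 3R (27172090 to 27194267, minus strand). Its strongest peak lay 1895 bp upstream of the gene at place 8012, with a signal of 40.1, at place 16460 in replicate 1 (signal 18.6) and 30787 in replicate 2 (signal 16.5). None of these peaks was near the top of either replicate.

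Su(H), the DNA-binding factor of the pathway, spans 3.85 kb of 2L (15039488 to 15043334, plus strand). The strongest peak assigned to it lay in a coding exon of the neighbouring gene CIAPIN1 at place 10356, with a signal of 37.8. That peak stood at place 95617 in replicate 1 (signal 4.18) and 15138 in replicate 2 (signal 20.8). The strongest ranked peak inside Su(H) stood at place 52357. H, the gene of the co-repressor adaptor Hairless, spans 6.98 kb of 3R (20621938 to 20628915, plus strand). Its strongest peak lay in a coding exon of CG5466 at place 16008, with a signal of 34.0. In replicate 1 it stood at place 10942 with a signal of 20.8, and it overlapped no ranked peak of replicate 2.

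At the promoters of these genes, ranked peaks were mostly weak. A ranked peak lay within 500 bp of an own transcription start at 9 of the 10 genes, kuz being the exception, and it was listed at 1, E(spl)m3-HLH. The same shares over all protein-coding genes are not given here, so these counts do not set the 10 genes apart from others. After E(spl)m3-HLH the strongest such peak was at mam, at place 2978 with a signal of 50.6, 203 bp upstream of a mam start. It overlapped no ranked peak of replicate 1 and stood at place 20284 in replicate 2. At N, Ser, fng, neur, Su(H), H and E(spl)m8-HLH the strongest promoter peak stood between place 27803 at N and place 97634 at Su(H). Where a summit within 500 bp of any transcription start was classed as promoter first, 3 of the 7 listed peaks were promoter peaks and 4 were intronic. The 3 starts were that of E(spl)m3-HLH, a start of gro and that of the noncoding transcript inside mam, and the summits at the last pair also lay in introns. The same split over all listed peaks is not given here, so it cannot be called particular to these genes.

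The conservative list rested on agreement between the libraries, so that agreement is in part how its peaks were chosen. The larger list did not require it: its mam peak at place 2472 overlapped no ranked peak of replicate 1. That list came from both libraries together, so its peaks are not independent of either replicate's list. Of the 7 listed peaks, 5 were in the lists of both replicates, and the same 5 were in the conservative list. The same shares over the whole larger list are not given here, so these counts describe the 7 peaks only. Of the 341 ranked peaks, 200 (58.7%) overlapped a ranked peak of replicate 1 and 277 (81.2%) one of replicate 2, where the shares over all ranked peaks were 68.5% and 71.2%. The share found in replicate 1 was lowest at neur (6 of 24 peaks) and H (3 of 12), and highest at Ser (35 of 40). Over the 162 peaks in both rankings, the Spearman correlation of signal between replicates was 0.168, and it was 0.069 over the 156 that were not listed. Some peaks of a replicate were counted more than once, where they overlapped more than 1 of the 162. These correlations are descriptions across peaks that share a library, not tests. Among the unlisted peaks in both rankings, the best place in replicate 1 was 1550, of a mam peak that stood at place 9352 in replicate 2. The best place in replicate 2 was 1485, of the kuz peak that stood at place 9984 in replicate 1.

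**Figure D4:**
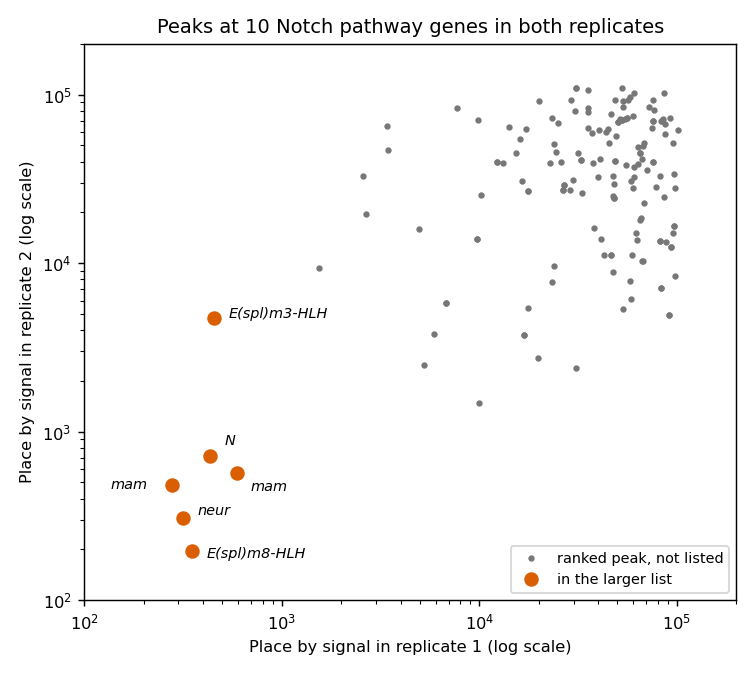
Place by signal in replicate 2 (vertical) against place in replicate 1 (horizontal), both on log scales, for the 162 peaks at the 10 genes that overlapped ranked peaks of both replicates. The 6 listed peaks lie at the lower left, with E(spl)m3-HLH at place 456 in replicate 1 and 4696 in replicate 2 farthest from the diagonal among them.

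The remaining genes of the pathway were taken from a list of 53, of which 51 matched the annotation. That list was also chosen with earlier results of these data known. A listed peak was present at 11 of the 51 (21.6%, against 13.1% of all genes), and a ranked peak in both replicates' lists at 7 (13.7%, against 5.48%). These shares were not matched by gene span. Over all genes the share with a listed peak rose from 9.63% under 5 kb to 40.9% at 50 kb or more. One of the 11, gro, shared its peak with E(spl)m8-HLH. Together with the 10 genes, they held 18 distinct listed peaks. Delta, the other ligand gene, had none: the best of its 15 ranked peaks had a signal of 41.7, at place 6711.

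Among genes of ubiquitin ligases and of receptor and ligand trafficking, 4 of 14 had a listed peak, against 13.1% of all genes. l(2)gd1, which encodes an endosomal sorting factor of Notch, had a peak 119 bp upstream of its start at 2L:11106746-11106911, with a signal of 304 at place 67. That peak stood at place 62 in replicate 1 (signal 172) and 98 in replicate 2 (signal 131). numb, the gene of a Notch inhibitor that is inherited unequally by sister cells, had a signal of 237 at place 128, with place 160 in replicate 1 and 90 in replicate 2. The clathrin adaptor gene AP-2alpha had a peak 132 bp upstream of its start, with a signal of 134 at place 382, and it was in both replicates' lists too. aux, which encodes the clathrin-uncoating factor auxilin, had an intronic peak with a signal of 93.4 at place 758, where CG14636 overlaps the gene. That peak was in the list of replicate 2 and not in that of replicate 1, where it stood at place 977.

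Among the nuclear factors, 3 of 10 genes had a listed peak, gro included. The share over all genes, 13.1%, applies to this and the other small groups below. nej, which encodes the acetyltransferase CBP, had one 728 bp upstream of the gene and 395 bp upstream of lncRNA:CR42657, with a signal of 121 at place 462, in both replicates' lists. Smr, a co-repressor gene of 58.4 kb, had 2 intronic peaks, with signals of 137 at place 367 and 68.4 at place 1340. Neither overlapped a ranked peak of replicate 1, and in replicate 2 they stood at places 626 and 9556. CtBP, the other co-repressor that Hairless binds, had no listed peak, and its strongest stood at place 5083. For glycosylation, 1 of 3 genes had a listed peak: rumi, which encodes a glucosyltransferase of Notch, with a signal of 87.6 at place 847. The rumi peak was in the conservative list and that of replicate 1. It was not in the list of replicate 2, where its IDR was 0.121. For receptor cleavage it was 1 of 5: aph-1, a gamma-secretase subunit gene, with a signal of 99.4 at place 675. The aph-1 peak lay 372 bp upstream of aph-1 and 196 bp upstream of Snx21, and it was in neither replicate's list.

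The E(spl) complex with gro spans 52.3 kb of 3R (25997621 to 26049911) from E(spl)mdelta-HLH to gro. The pathway list holds 12 genes of this span, which also contains others such as Kaz-m1. Over all ranked peaks the share listed was 1.12%. With 2 kb added at either end, the complex held 74 ranked peaks, of which 4 were listed. Besides the peaks at E(spl)m3-HLH and gro, these were peaks near E(spl)malpha-BFM, which encodes a Bearded family protein, and E(spl)mdelta-HLH, a bHLH repressor gene. The E(spl)malpha-BFM peak lay 1824 bp upstream of that gene, with a signal of 121 at place 464, and stood at place 492 in replicate 1 and 603 in replicate 2. The E(spl)mdelta-HLH peak lay 994 bp upstream of that gene but within CG43116, 369 bp downstream of the CG43116 start. Its signal was 87.2 at place 855, and it stood at place 991 in replicate 1 and 1252 in replicate 2. Both were in the lists of both replicates. No listed peak was assigned to E(spl)mgamma-HLH, E(spl)mbeta-HLH, E(spl)m2-BFM, E(spl)m4-BFM, E(spl)m5-HLH, E(spl)m6-BFM or E(spl)m7-HLH. The density of ranked peaks over the extended span was 1.31 per kb. No listed peak was found at the 4 Bearded family genes matched outside the complex, or at the 5 other targets Hey, dpn, sim, vg and ct. These groups are small, and 13.1% of all genes had a listed peak.

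The 200 bp windows of the 18 distinct listed peaks at pathway genes, of which those at mam and some others are not shown, were searched on both strands for 8 words. None of the 7 windows at the 10 genes held TAATTA, a palindrome at the core of many homeodomain sites, where 20.1% of all listed windows and 9.94% of all ranked windows did. Among the 18 pathway windows the word occurred in 1, at Smr. The related word TAATTG was in 4 of the 7, once in the window at gro, in the window at E(spl)m3-HLH on each strand, and in both windows of the strong mam pair. It was in 6 of the 18 pathway windows, in 19.1% of listed and in 15.6% of ranked windows. ACAGTG was in 2 of the 7, at neur and at the second mam peak of the pair, in no other of the 18, and in 21.9% of listed and 8.16% of ranked windows. With 7 windows, no test was made of these shares.

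Neither of the words that match the Su(H) site was found in the 18 pathway windows. GTGGGAA was in 1.87% of listed and 2.80% of ranked windows, and GTGAGAA in 3.25% and 1.80%. The E boxes were also at 0 of 18. Of these, CAGCTG was in 8.79% of listed and 10.7% of ranked windows, and CACGTG in 1.52% and 2.91%. GAGAG, a word of GAGA factor sites, was in 1 of the 7, at E(spl)m3-HLH, in 3 of the 18, and in 23.9% of listed and 23.1% of ranked windows. A missing word says only that these letters were absent from the window. The median GC content of the 7 windows was 34.5%, close to the 36.0% of all listed windows and below the 46.5% of all ranked windows. The window of the mam peak absent from replicate 1 stood apart with 54.5%, and the E(spl)m3-HLH window was lowest with 23.0%.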

How the data were processed

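Lim3-eGFP ChIP-seq peaks of 2 biological replicates were used as deposited, on dm6, per the labels. The signal of a deposited peak is the authors' value on an unstated scale, and the aligner, peak caller and read depth behind it are not stated. The deposited score is scaled from the IDR up to 1000, and the authors' −log10 of the IDR, deposited with the ranked lists, was capped at 5. The larger list lacks 124 ranked peaks at an IDR of 0.01 or less. The ranking between the libraries behind the conservative list repeats the pooled signal, so only its IDR was read.

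Peaks were ordered by signal within each list and assigned by summit to Ensembl release 115 genes extended by 2 kb. Peaks of 2 lists were matched by an overlap of at least 1 bp. Sequences came from RefSeq release 6. Python 3.11.15, pandas 2.3.3 and numpy 2.4.6 were used, and the overlap code was tested on simulated intervals. With 1 group, no test between conditions exists and none was run. All 10 genes, each other pathway gene with a listed peak, and the genes at or nearest to their summits were named, as well as the 2 genes on either side of the best-placed gene. CtBP, Delta and the pathway genes named as lacking a listed peak were added after their values were seen. Of the 53 other genes, 4 matched through a synonym and 2 did not match. The genes and lists were chosen with earlier results of these data known. Alternatives changed the extension, the assignment, the overlap, the list and the IDR limit, and left out each replicate.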

Additional observations from a re-analysis of the deposited data

How the results depend on the processing

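Without the extension of the gene spans, 3 of the 10 genes rather than 5 had a listed peak, since the peaks at E(spl)m3-HLH and E(spl)m8-HLH lay outside those genes, and the other pathway genes with one fell from 11 to 4. An extension of 5 kb gave 6 of the 10, with fng added, and 19 other pathway genes. Shares over all genes are given above only for the 2 kb extension. These counts, and those by nearest start or another IDR limit, have no such share beside them. Assignment to the gene with the nearest start gave 3 of the 10 genes, 3 listed peaks rather than 7, 1 gene rather than 4 with a peak in both replicates' lists, and 204 ranked peaks rather than 341. The peaks at N, at the mam pair and at gro then went to other genes. An IDR limit of 0.05 gave 11 peaks at 6 genes, and a limit of 0.001 gave 7 other pathway genes. With 1 replicate left out, the genes with a listed peak numbered 4 to 5 and their listed peaks 5 to 6, the ranked peaks 201 to 338, and the other pathway genes 8 to 9. Without replicate 1 the E(spl)m3-HLH peak was lost, and its best place moved from 713 to 4696. The overlap of 50% and the conservative list moved no count by more than 1.5 times. Of 50 alternative best places of single genes, 34 moved by less than 1 SD of the gene's own replicates. That count does not measure stability, because the limit widens where the replicates disagree. The move of Su(H) from place 10356 to 52357 without the extension fell within it. The move of N from place 479 to 718 without replicate 1 did not. The alternatives without a replicate also rest on the same replicate rankings as the limit. No paired analysis was possible because the series has 1 group. Depth is unknown, and so is the precision of each signal.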
